A study of Mus musculus with 8 samples.

Results

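The transcripts described here are those of 10 genes whose proteins coat or build the lipid droplet or form caveolae: the perilipins Plin1, Plin2, Plin3, Plin4 and Plin5, the CIDE gene Cidec, the seipin gene Bscl2, Fitm2, and the caveolins Cav1 and Cav2. They were chosen by symbol and not by a rule on their values, though earlier results of these data were known. All 10 were among the 23212 symbols of the count files, and all 10 were among the 14493 genes with enough counts to be tested. They were measured by RNA-seq in whole perigonadal adipose tissue of 8 C57BL/6 mice. They fell into 4 mice with an adipocyte-specific gene knockout (KO) and 4 wild-type mice (WT). All 8 mice were 20 weeks old and had eaten a 45% high-fat diet for 12 weeks from the age of 8 weeks, so there was no lean group, and the series' design text describes the genotypes as matched for age and weight. The driver of the knockout is not given in the sources used here, and by that label the other cells of the tissue keep the gene.

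A fat cell stores triglyceride in a lipid droplet, a core of neutral lipid under a single layer of phospholipid. Perilipins sit on that layer and control the access of lipases to the core. Proteins of the endoplasmic reticulum, such as seipin and FITM2, help new droplets to form, and CIDE proteins let droplets fuse into the large unilocular droplet of white fat. Caveolae are small invaginations of the plasma membrane that are abundant in adipocytes, endothelium and smooth muscle, and they need caveolin-1 to form.

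The libraries held 46444435 to 51431956 counts each. Levels are given as CPM, read counts per 1000000 counts of the scaled library, and levels of different genes are set against each other as TPM, which also divides by the exonic length of each gene in the deposited annotation. KO was compared with WT by edgeR's quasi-likelihood test, with p-values adjusted over all 14493 genes and a threshold of 0.05. The adipocyte marker Adipoq, which encodes adiponectin, was at 3541 to 6750 CPM in KO and 4153 to 7110 CPM in WT. All 10 adipocyte markers were detected. KO 2 and WT 3 stood apart in genes of ciliated epithelium. Transcripts of Foxj1, which drives the growth of motile cilia, reached 26.1 CPM in KO 2 and 7.97 CPM in WT 3 and no more than 0.287 CPM elsewhere. The summed level of 6 epithelial and ciliated markers was at 5.87 to 157 CPM in KO and 6.75 to 57.2 CPM in WT, and its part in the results was not tested. Values without KO 2 and WT 3 are given where they change a direction. In bulk tissue, fewer cells of a type and less RNA per cell cannot be told apart.

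None of the 10 genes passed the threshold in edgeR, where 0.0138% of all genes tested did. DESeq2 and limma voom also called 0 of the 10, against 0.134% and 0% of all genes that each tested, so 0 of 10 is near the background in each tool. At an unadjusted p under 0.05 edgeR had 1 of the 10, Plin5, with the higher mean in KO, against 2.23% of all genes tested (1.17% higher and 1.06% lower). The KO and WT libraries did not overlap for 1 of the 10, Cav1, against 1.44% of all genes tested. The log2 fold change was positive for 6 of the 10 and negative for 4, and the median of the 10 was 0.01, as was that over all genes tested. The order of p was uneven: Plin5, Cav2 and Cav1 were among the 1.25%, 2.59% and 2.61% of genes with the smallest p, and every other gene had an unadjusted p of 0.720 or more.

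**Figure D1:**
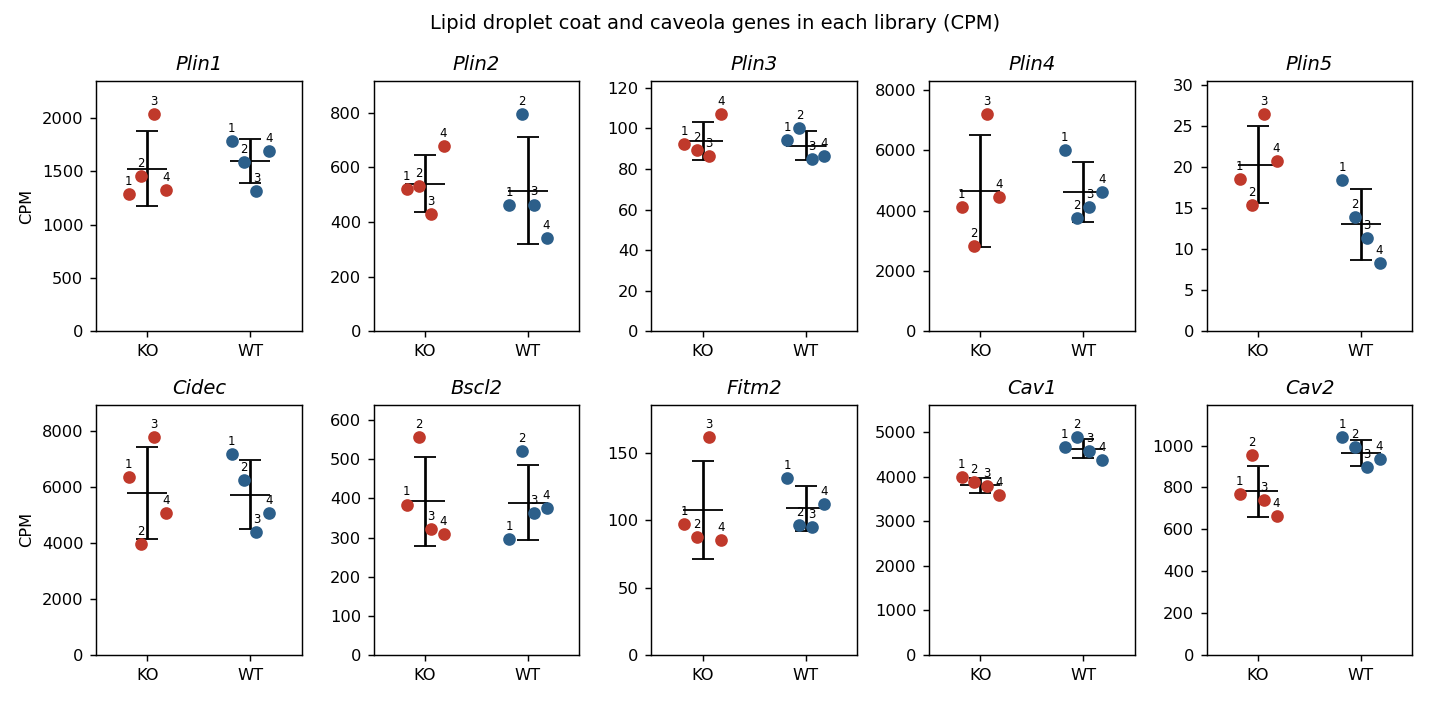
CPM (linear axis from 0) of each gene in the 4 KO (red, left) and 4 WT (blue, right) libraries, numbered by replicate, with the mean and SD as black bars. The KO points of Cav1 lie at 3586 to 3993 CPM, below every WT point at 4385 to 4888 CPM, while the groups overlap in the other 9 genes.

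By level per length the genes spanned a wide range. Cidec was the highest, with 5187, 7324 and 9884 TPM as the lowest, median and highest of the 8 libraries, and was the gene with rank 10 of 23212 by median TPM. Its protein, FSP27, gathers at contacts between droplets and moves lipid into the larger one. Cav1 came next, at 2890, 3226 and 3859 TPM, with rank 21. Plin1 followed at 1443, 1748 and 2312 TPM and Plin4 at 1093, 1676 and 2720 TPM, with ranks 50 and 52. Plin1 and Plin4 could not be ordered, since Plin1 was above Plin4 in 3 of the 8 libraries and below it in the others.

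Cav2 was at 600 to 907 TPM and Plin2 at 379 to 923 TPM, and these ranges overlapped, with Cav2 above Plin2 in 6 of 8 libraries. Bscl2, at 290 to 560 TPM, lay below Plin2 in each of the 8 libraries although the ranges overlapped. Fitm2 was at 116 to 213 TPM and Plin3 at 84.3 to 111 TPM. Plin5 was the lowest, at 8.62 to 28.2 TPM, with rank 6212. No range overlapped between Cidec and Cav1, Cav1 and Plin1, Plin4 and Cav2, Bscl2 and Fitm2, Fitm2 and Plin3, or Plin3 and Plin5. Together the 10 genes took 1.47% to 2.2% of the counts of a KO library and 1.69% to 2.09% of those of a WT library.

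Plin1 encodes the perilipin of the mature white adipocyte droplet, which holds back lipolysis in the fed state and opens the droplet to lipases when phosphorylated. It had 1290, 1453, 2043 and 1326 CPM in KO 1 to 4, against 1789, 1585, 1316 and 1696 CPM in WT 1 to 4. KO 3 was the highest library and KO 1 the lowest, so the KO range held the whole WT range. KO over WT, the log2 fold change was -0.06 (SE 0.18, edgeR adjusted p = 0.9999), with a 95% interval from 0.717 to 1.28 in fold.

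Plin4 encodes a long perilipin that binds small droplets through a repeated amphipathic stretch. It had 4127, 2825, 7221 and 4450 CPM in KO 1 to 4, against 6014, 3742, 4127 and 4623 CPM in WT 1 to 4. The lowest and the highest of all 8 libraries were both KO. Its log2 fold change was 0.0091 (SE 0.29, edgeR adjusted p = 0.9999), and the 95% interval of the fold ran from 0.64 to 1.58. It was -0.28 without KO 3, and negative in 5 of 17 alternatives.

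The repeat of Plin4 is shown because it encodes the droplet-binding stretch and because reads from near-identical units are hard to place. In the GENCODE transcript Plin4-201, 26 consecutive units of 99 bases made up 61.2% of the 4209 coding bases. Units 9, 10 and 11, on the minus strand of GRCm38 at chr17:56106361-56106459, chr17:56106262-56106360 and chr17:56106163-56106261, read as follows, with capitals where a base differs from the commonest base of the 26 units at that position.
Unit 9: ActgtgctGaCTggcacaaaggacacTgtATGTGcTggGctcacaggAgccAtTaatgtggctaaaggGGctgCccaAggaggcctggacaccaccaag
Unit 10: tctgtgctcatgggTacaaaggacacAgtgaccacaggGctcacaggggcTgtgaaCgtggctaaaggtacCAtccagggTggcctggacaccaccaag
Unit 11: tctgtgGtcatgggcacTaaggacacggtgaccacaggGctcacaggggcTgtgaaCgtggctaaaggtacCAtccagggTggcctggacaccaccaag
Unit 9 recurred letter for letter as unit 14, and unit 10 as unit 15. Of all stretches of 50 bases in this transcript 17.4% occurred more than once in it, against 0% in the transcripts of each of the other 9 genes. Stretches shared with transcripts of other genes were 9.93% of those in Bscl2, 4.89% in Plin2 and 1.25% in Plin3. They were 0% in each of the rest, Plin4 included. The GENCODE transcripts of Plin3 and Fitm2 hold 3645 and 3967 bases, against 2159 and 1643 exonic bases in the deposited annotation. The shares of these genes thus also cover bases outside the counted exons. In the deposited annotation the 2 exons that carry the repeat are separated by 594 bases, which is 6 units of 99 bases to the base. That gap lies inside unit 12, whose bases span chr17:56105470-56106162. The 26 units are thus consecutive in the transcript and not in the genome. Whether reads from repeated or shared stretches were placed at 1 site, at several or not counted is not given in the sources used here. Their part in the counts of Plin4, Bscl2, Plin2 and Plin3 was not tested.

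**Figure D2:**
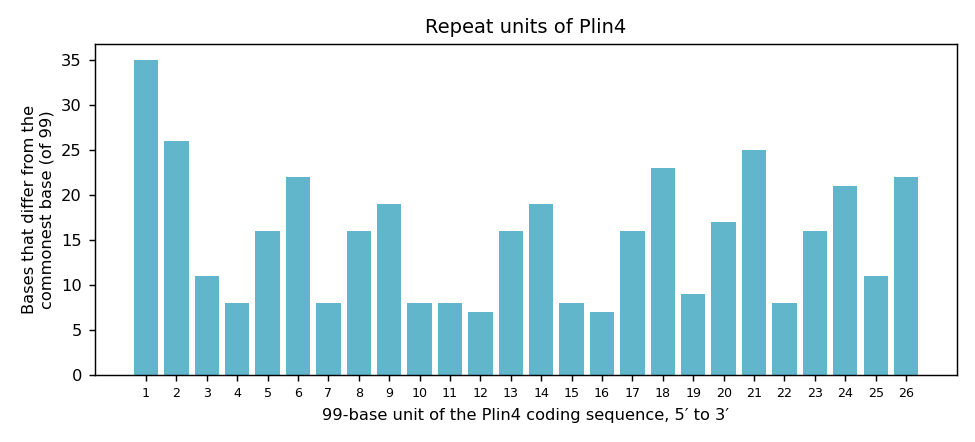
Number of bases (of 99) at which each of the 26 consecutive coding units of Plin4-201 differs from the commonest base at that position, 5′ to 3′. Unit 1 differs at 35 positions, and units 12 and 16, the closest to the commonest sequence, at 7 each.

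Plin2 encodes adipophilin, the perilipin of small droplets in most cell types, lipid-laden macrophages included. It had 521.5, 533, 429 and 679 CPM in KO 1 to 4, against 461, 797, 464 and 340 CPM in WT 1 to 4. WT 2 was the highest library and WT 4 the lowest, so the KO values lay within the WT range. Plin2 had a log2 fold change of 0.07 (SE 0.26, edgeR adjusted p = 0.9999). It was 0.36 without WT 2 and -0.08 without WT 4. The summed level of 10 macrophage markers was at 478 to 2347 CPM in KO and 393 to 1127 CPM in WT, all 10 markers had a log2 fold change above 0, and none passed. KO 4 had the highest macrophage sum and the second highest Plin2, while WT 2, the library with the most Plin2, had a macrophage sum of 511 CPM. The part of macrophages in the Plin2 level was not tested.

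Plin3 encodes TIP47, a perilipin found in the cytosol of most cells that moves to nascent droplets. It was the steadiest perilipin, with 92.4, 89.3, 86.6 and 107 CPM in KO 1 to 4, against 94.2, 100, 84.9 and 86.6 CPM in WT 1 to 4. The highest library was 1.26 times the lowest. Its log2 fold change was 0.04 (SE 0.10, edgeR adjusted p = 0.9999), and the 95% interval of the fold, from 0.877 to 1.2, was the narrowest among the 10 genes.

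Plin5 encodes the perilipin of oxidative tissues such as heart, brown fat and fasted liver, where it ties droplets to mitochondria. It was at 18.6, 15.4, 26.55 and 20.8 CPM in KO 1 to 4, against 18.5, 13.98, 11.3 and 8.36 CPM in WT 1 to 4. KO 3 was the highest and WT 4 the lowest, and the groups overlapped through KO 2, which lay below WT 1. The mean was 20.3 ± 4.72 CPM in KO and 13.04 ± 4.30 CPM in WT (SD, n = 4 each). The log2 fold change of 0.64 (SE 0.25) had an unadjusted p of 0.0327 and an edgeR adjusted p of 0.9999, so it did not pass. The fold was 1.56 with a 95% interval from 1.05 to 2.32. Its log2 fold change stayed above 0 in all 17 alternative settings, from 0.48 without WT 4 to 0.86 without WT 1. Its unadjusted p was above 0.05 in 6 of the 17: with the replicate block (0.0528) and without KO 3 (0.0986), KO 4 (0.0614), WT 2 (0.0520), WT 3 (0.0795) or WT 4 (0.0656).

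Plin1 and Plin4 made up most of the perilipin transcripts. Plin1 made up 36.7% to 48.0% of the summed perilipin TPM in KO and 40.5% to 46.3% in WT, and Plin4 31.1% to 48.2% in KO and 33.3% to 45.9% in WT. Plin2 made up 8.73% to 19.1% in KO and 9.42% to 21.6% in WT. The share of Plin5 was 0.531%, 0.476%, 0.501% and 0.542% in KO 1 to 4, against 0.398%, 0.351%, 0.328% and 0.214% in WT 1 to 4. These shares did not overlap, all 4 KO libraries being higher. Plin5 itself did overlap, at 16.8 TPM in KO 2 and 19.6 TPM in WT 1. Plin4, which is part of the sum, was at 1093 TPM in KO 2 and 2256 TPM in WT 1. The separation thus rests on the summed perilipins as well as on Plin5. Scaled in the same way to the summed perilipin TPM, 0.166% of all genes tested lay higher in each KO library than in every WT library. The share was looked at after the Plin5 values had been seen.

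**Figure D3:**
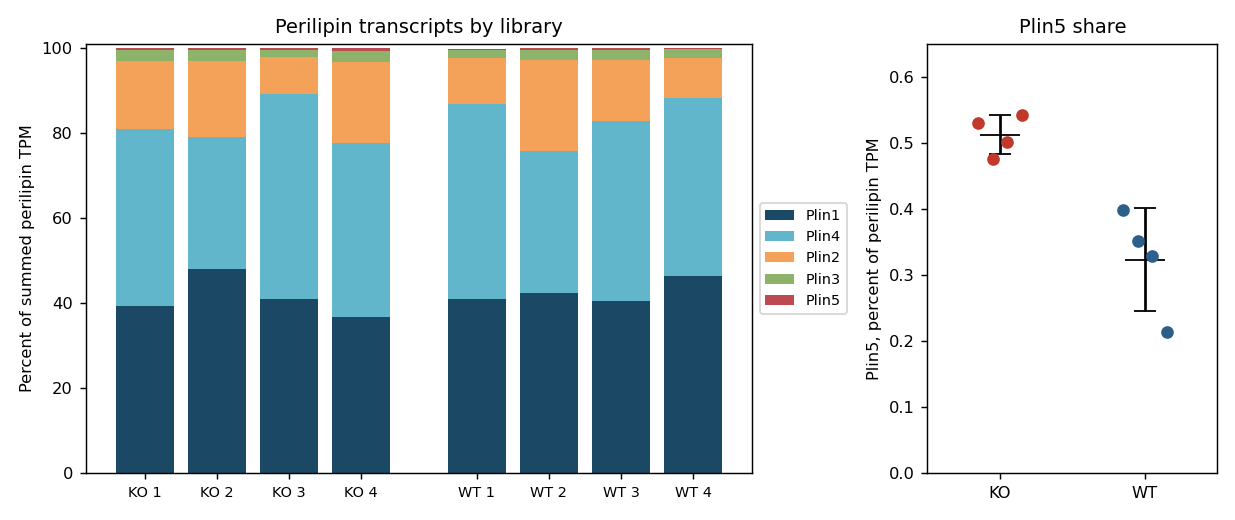
Left, share of each perilipin in the summed TPM of the 5 perilipins (percent) in each library, KO on the left and WT on the right. Right, the share of Plin5 alone in KO (red) and WT (blue), with mean and SD, at 0.476% to 0.542% in KO and 0.214% to 0.398% in WT.

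Beige adipocyte genes are given beside Plin5, which is known from mouse brown fat. The summed level of 7 such markers was at 28.4, 32.8, 18.04 and 21.1 CPM in KO 1 to 4, against 16.1, 15.1, 17.1 and 18.2 CPM in WT 1 to 4. The sums overlapped only through KO 3. Of the 5 that could be tested 4 had a log2 fold change above 0, and none passed. Ucp1, which defines the type as the uncoupling protein of brown fat, was at 0.138 to 0.473 CPM in KO and 0 to 0.0779 CPM in WT and was not tested. Cox8b, a subunit of cytochrome oxidase, was at 9.22 to 15.6 CPM in KO and 7.40 to 9.03 CPM in WT, and Cox7a1, another subunit, at 4.74 to 8.93 CPM in KO and 3.75 to 4.64 CPM in WT. Cox8b and Cox7a1 were thus higher in every KO library than in every WT library, as were 0.621% of all genes tested. Ucp1 was too, but that share does not cover it, since it had too few counts to be tested. The other 4 markers overlapped, among them Elovl3 with a log2 fold change of -0.02. The part of beige cells in the Plin5 level was not tested.

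Cidec had 6350, 3965, 7760 and 5076 CPM in KO 1 to 4, against 7160, 6247, 4397 and 5063 CPM in WT 1 to 4. KO 2 was the lowest library and KO 3 the highest, as for Plin4. The mean was 5788 ± 1637 CPM in KO and 5717 ± 1229 CPM in WT (SD, n = 4 each). KO over WT this was 0.02 in log2 (SE 0.25, edgeR adjusted p = 0.9999). The direction changed with the setting: it was negative in 6 of 17 alternatives, among them -0.16 without KO 3.

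Fitm2 encodes an endoplasmic reticulum protein that partitions triglyceride into droplets. It had 96.9, 87.4, 161.5 and 85.1 CPM in KO 1 to 4, against 131, 96.7, 95.03 and 112 CPM in WT 1 to 4. KO 3 stood above all other libraries, and its nearest KO neighbour was at 96.9 CPM. For Fitm2 the log2 fold change was -0.01 (SE 0.22, edgeR adjusted p = 0.9999) and was -0.28 without KO 3. It was positive in 7 of 17 alternatives, with 0.01 under total counts and 0.02 without KO 2 and WT 3. Fitm2 shares 85 exonic bases with 2310001K24Rik, which was at 0.655 CPM or less.

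Bscl2 encodes seipin, the protein of the endoplasmic reticulum at contacts with droplets, whose loss causes congenital lipodystrophy in humans. It had 384, 556, 323 and 308 CPM in KO 1 to 4, against 297, 522, 363 and 374 CPM in WT 1 to 4. KO 2 and WT 2 were the highest libraries, the reverse of Plin4, for which they were the lowest. The log2 fold change was 0.01 (SE 0.23, edgeR adjusted p = 0.9999), and it was negative in 5 of 17 alternatives, with -0.23 without KO 2 and WT 3. Bscl2 shares 398 exonic bases with Gng3, which was at 0.941 to 2.535 CPM.

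KO 3 and WT 1 were the top pair of libraries for Plin1, Plin4, Cidec and Fitm2. For Plin2 and for Bscl2 they were among the 3 lowest. Adipoq was also highest in these libraries, at 6750 CPM in KO 3 and 7110 CPM in WT 1. The spread of Plin4 and Fitm2 was larger within KO, with coefficients of variation of 39.7% and 33.6%, than within WT, with 21.5% and 15.5%. That difference in spread was not tested.

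Both caveolins had lower means in KO, and neither passed. Cav1 encodes caveolin-1, the main coat protein of caveolae. It had 3993, 3877, 3803 and 3586 CPM in KO 1 to 4, against 4674, 4888, 4582 and 4385 CPM in WT 1 to 4. All 4 KO libraries lay below all 4 WT libraries, as did those of 0.821% of all genes tested. The mean was 3815 ± 171 CPM in KO and 4632 ± 209 CPM in WT (SD, n = 4 each), a coefficient of variation of 4.49% in KO and 4.51% in WT, the smallest among the 10 genes. The log2 fold change was -0.28 (SE 0.13), with an unadjusted p of 0.0562 and an edgeR adjusted p of 0.9999. The fold of 0.824 had a 95% interval from 0.674 to 1.01. DESeq2 gave the same log2 fold change with an SE of 0.0703 and an adjusted p of 0.0524, just outside the threshold. In edgeR and limma voom the adjusted p over the alternatives was 0.882 or more.

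Cav2 encodes caveolin-2, which forms hetero-oligomers with caveolin-1 and needs it to leave the Golgi. It had 767, 953, 741 and 665 CPM in KO 1 to 4, against 1039, 992, 897 and 935 CPM in WT 1 to 4. KO 2 lay inside the WT range and the other KO libraries lay below it. The mean was 782 ± 122 CPM in KO and 966 ± 62.5 CPM in WT (SD, n = 4 each). The log2 fold change was -0.30 (SE 0.14), with an unadjusted p of 0.0555 and an edgeR adjusted p of 0.9999, and the fold of 0.81 had a 95% interval from 0.651 to 1.01. Without KO 2 it was -0.42 (edgeR adjusted p = 0.996), and without KO 2 and WT 3 it was -0.45 (edgeR adjusted p = 0.8696). The ratio of Cav1 to Cav2 in TPM was 3.64 to 4.82 in KO and 4.02 to 4.57 in WT.

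Both caveolins kept a log2 fold change below 0 in all 17 alternatives, from -0.30 to -0.25 for Cav1 and from -0.45 to -0.24 for Cav2.

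**Figure D4:**
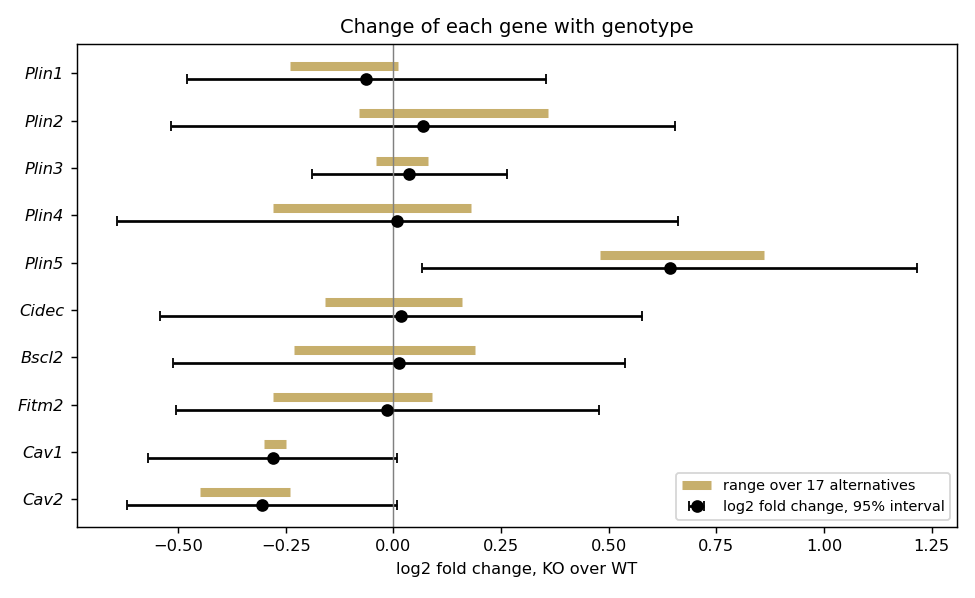
Log2 fold change of each gene, KO over WT, with its 95% interval from edgeR (black), and the range of the same value over 17 alternative settings (gold). The gold bars of Cav1, Cav2 and Plin5 stay on one side of 0, and those of the other 7 genes cross it.

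Cav1 and Cav2 are neighbours on chromosome 6, both on the plus strand (mm10), with Cav2 from 17281341 to 17289011 and Cav1 from 17306335 to 17341328. They were 17323 bases apart, and the deposited annotation held no other symbol between them. Plin4 (chromosome 17, 56100591 to 56109802) and Plin5 (56111601 to 56117548), both on the minus strand, were neighbours 1798 bases apart with no symbol between them, and Plin3 lay on the same chromosome at 56278962 to 56290511. Plin1 was on chromosome 7, Plin2 on chromosome 4, Cidec on chromosome 6, 96083307 bases from Cav1, Bscl2 on chromosome 19 and Fitm2 on chromosome 2.

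The start regions of the genes with the smallest p, Cav1, Cav2 and Plin5, and of Plin2, are shown because PPAR gamma, the nuclear receptor of adipocytes, is known to act on lipid droplet genes. They are RefSeq windows of 300 bases on GRCm38.p6, 250 before and 50 after the start, given on the strand of the gene. Capitals mark AGGTCA on either strand, a short motif within nuclear receptor binding sites and not a whole PPAR gamma site. Cav1 is at chr6:17306085-17306384 and Cav2 at chr6:17280935-17281234, both plus, the start of Cav2 lying 156 bases from that of the deposited annotation. Plin5 is at chr17:56117499-56117798 and Plin2 at chr4:86670010-86670309, both minus.
Cav1: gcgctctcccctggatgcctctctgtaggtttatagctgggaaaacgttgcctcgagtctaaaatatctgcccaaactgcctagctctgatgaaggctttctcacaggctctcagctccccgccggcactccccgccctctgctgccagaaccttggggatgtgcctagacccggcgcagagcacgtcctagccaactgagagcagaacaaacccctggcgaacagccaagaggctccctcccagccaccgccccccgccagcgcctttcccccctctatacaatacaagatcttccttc
Cav2: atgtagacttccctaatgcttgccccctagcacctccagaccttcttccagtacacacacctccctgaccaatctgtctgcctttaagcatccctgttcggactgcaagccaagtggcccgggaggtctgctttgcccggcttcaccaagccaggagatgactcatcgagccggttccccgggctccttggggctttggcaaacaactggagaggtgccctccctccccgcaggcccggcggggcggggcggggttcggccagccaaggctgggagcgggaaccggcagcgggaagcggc
Plin5: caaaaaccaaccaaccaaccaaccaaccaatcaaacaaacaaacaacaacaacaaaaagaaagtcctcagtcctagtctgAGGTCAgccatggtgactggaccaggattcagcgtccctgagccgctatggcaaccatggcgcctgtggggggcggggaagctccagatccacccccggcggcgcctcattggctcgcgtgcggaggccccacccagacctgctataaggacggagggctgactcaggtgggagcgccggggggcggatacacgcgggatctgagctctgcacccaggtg
Plin2: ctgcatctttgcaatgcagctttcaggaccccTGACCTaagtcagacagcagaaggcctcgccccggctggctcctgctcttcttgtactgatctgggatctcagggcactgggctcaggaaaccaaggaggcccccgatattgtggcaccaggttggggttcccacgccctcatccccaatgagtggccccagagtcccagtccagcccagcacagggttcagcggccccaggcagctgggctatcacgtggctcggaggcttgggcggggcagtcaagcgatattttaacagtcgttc
A window was found for all 10 genes. AGGTCA was in the windows of 2 of the 10, beginning at position -170 in Plin5 and, on the opposite strand, at -218 in Plin2, counted from the start. Both of these windows are printed above, though Plin2 was not among the genes with the smallest p. No window left unprinted held a match, so the printed ones hold the motif more often than the 10 do. It was in 16.3% of all 32841 windows in the table. A direct repeat of AGGTCA with 1 base of any kind between, which holds the shorter motif at each end, was in none of the 10 windows and in 0.0396% of all windows. A match is a run of letters and not a shown binding site, and sites farther from the start were not searched.

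Other genes of the droplet and of caveolae are described by lists drawn from their known roles, though earlier results of these data were known. Of 19 droplet proteins matched by symbol, 17 could be tested; the list also named Ubxd8, an older symbol of its member Faf2. Of the 17, 0 were called, against 0.0138% of all genes tested in edgeR, 0.134% in DESeq2 and 0% in limma voom, and 0 had an unadjusted edgeR p under 0.05, against 2.23%. Their log2 fold changes were positive for 7 and negative for 10, with a median of -0.08 beside 0.01 over all genes tested. Rab7, a GTPase of late endosomes also found on droplets, was at 34.1 ± 2.12 CPM in KO and 37.8 ± 0.621 CPM in WT (SD, n = 4 each), with all KO libraries below all WT libraries, as for 0.821% of all genes tested, and an unadjusted edgeR p of 0.0938 (adjusted p = 0.9999). Dgat2, which makes triglyceride at the droplet surface, was at 2482, 3625, 2485 and 2848 CPM in KO 1 to 4, against 3114, 5338, 3065 and 2425 CPM in WT 1 to 4. Rab18, a GTPase of the droplet surface, was at 134 ± 6.49 CPM in KO and 145 ± 12.4 CPM in WT, and Acsl3, an acyl-CoA synthetase of nascent droplets, at 13.1 ± 2.395 CPM in KO and 14.8 ± 2.10 CPM in WT. Fitm1 and Hsd17b13 had too few counts to be tested.

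Of 7 genes of lipolysis at the droplet, 0 were called by any of the 3 tools and 0 had an unadjusted edgeR p under 0.05, against the same shares of all genes (0.0138%, 0.134% and 0% called, and 2.23%). Their log2 fold changes were positive for 4 and negative for 3, with a median of 0.04. Abhd5, which encodes the activator CGI-58 that PLIN1 holds back, was at 236 ± 46.9 CPM in KO and 220 ± 32.3 CPM in WT. Lipe, hormone-sensitive lipase, which docks on phosphorylated PLIN1, was at 3511 ± 489 CPM in KO and 3329 ± 324 CPM in WT. G0s2, an inhibitor of the first lipase of the pathway, was at 363 ± 53.9 CPM in KO and 335 ± 124 CPM in WT. Pnpla3, a droplet acylhydrolase, was at 317 ± 27.0 CPM in KO and 343 ± 9.80 CPM in WT (SD, n = 4 each for all 4 genes).

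Among 12 other caveola genes the log2 fold change was positive for 5 and negative for 7, with a median of -0.09. None was called by edgeR, DESeq2 or limma voom, against 0.0138%, 0.134% and 0% of all genes, and 0 had an unadjusted edgeR p under 0.05, against 2.23%. The cavins, which coat the caveolar bulb from the cytosol, did not share one direction. Ptrf, the symbol of cavin-1 in these files, is needed for caveolae in mice. It had 3780, 2303, 3176 and 3073 CPM in KO 1 to 4, against 3345, 2650, 2715 and 2881 CPM in WT 1 to 4, a log2 fold change of 0.09 (SE 0.18, edgeR adjusted p = 0.9999). Unlike Cav1, Ptrf had both its highest and its lowest library in KO. Sdpr, the symbol of cavin-2, had 1012, 723, 996 and 744 CPM in KO 1 to 4, against 1326, 1207, 831 and 923 CPM in WT 1 to 4. The groups overlapped, and its log2 fold change of -0.30 (SE 0.20, edgeR adjusted p = 0.9999) was of the same size as that of the caveolins.

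Ehd2, an ATPase of the caveolar neck, had a log2 fold change of 0.0079 (SE 0.15). Ehd3, its relative in endosomal recycling, was at 66.3 ± 18.4 CPM in KO and 89.0 ± 18.4 CPM in WT (SD, n = 4 each). Ror1, a receptor that binds caveolar proteins, was at 0.675 to 2.51 CPM in KO and 1.51 to 2.92 CPM in WT. Pacsin1, a membrane-bending protein mainly of neurons, was at 0.178 to 1.11 CPM in KO and 0.0838 to 0.37 CPM in WT, and its highest values were in KO 2, KO 4 and WT 3. None of these genes passed (edgeR adjusted p = 0.9999 for each). Cav3, the muscle caveolin, had too few counts to be tested.

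**Figure D5:**
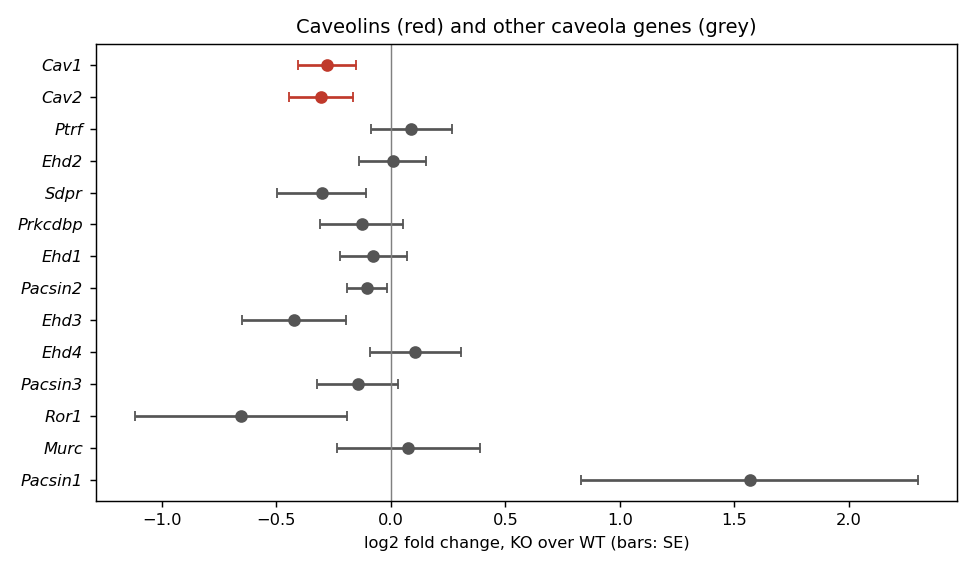
Log2 fold change, KO over WT, of the caveolins (red) and of 12 other caveola genes (grey), with SE bars from edgeR. Cav1 and Cav2 lie at -0.28 and -0.30, Ptrf and Ehd2 at 0.09 and 0.0079, and Pacsin1, with at most 1.11 CPM in any library, at 1.57.

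Caveolae are shared by several cell types of the tissue, so their markers are given beside the caveolins. The summed level of 10 smooth muscle and pericyte markers was at 413, 483, 488 and 459 CPM in KO 1 to 4, against 476, 978, 807 and 636 CPM in WT 1 to 4. Of these markers 9 had a log2 fold change below 0 and none passed, and the sums overlapped through WT 1. Acta2, smooth muscle actin, was at 107 to 135 CPM in KO and 150 to 605 CPM in WT, without overlap, as for 0.821% of all genes tested in this direction, and the other 9 markers overlapped. The summed level of 10 endothelial markers was at 975 to 1447 CPM in KO and 987 to 1431 CPM in WT, with 7 of the 10 below 0. The summed level of 10 adipocyte markers was at 61250 to 73280 CPM in KO and 63150 to 82670 CPM in WT, with 6 of 10 below 0. The 6 mesothelial markers, all below 0, summed to 118 to 882 CPM in KO and 190 to 996 CPM in WT, and the 8 progenitor and fibroblast markers, with 5 above 0, to 1235 to 2638 CPM in KO and 1451 to 2163 CPM in WT. No marker of any list was at 0 in all libraries and none passed. The part of these cell types in the caveolin levels was not tested.

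Among 9202 other genes with a mean of at least 10 CPM, the closest in pattern to Cav1 over the 8 libraries was Lrrk2, a kinase, with a Pearson r of 0.959 in log2 CPM. It was at 19.5, 17.99, 16.8 and 16.3 CPM in KO 1 to 4, against 22.9, 23.6, 23.2 and 19.4 CPM in WT 1 to 4, so that KO 1 lay just above WT 4. Cav2 was closest to Cul3, a ubiquitin ligase scaffold (r = 0.955), and Plin5 to Plcd3, a phospholipase C (r = 0.958). Plin1 was closest to AW549877 (r = 0.996), Plin4 to Ttc38 (r = 0.988), Cidec to Capn2 (r = 0.98), Fitm2 to Supt7l (r = 0.993) and Bscl2 to Abcb6 (r = 0.98). Plin2 and Plin3 were closest to Gmppb and Mvp, with r of 0.955 and 0.952. Within the 10 genes r was highest between Plin1 and Fitm2, at 0.898, and between Plin4 and Fitm2, at 0.881. It was 0.82 between Cav1 and Cav2, 0.803 between Plin2 and Plin3 and 0.79 between Plin4 and Cidec. The lowest r was -0.81, between Plin4 and Bscl2. These values describe 8 libraries that share one scaling, and the highest of 9202 values of r is high by selection. KO and WT were pooled without removing their means, so r also holds any difference between the groups, as for Cav1.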

How the data were processed

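Whole perigonadal fat of 8 mice gave 1 library each, run on a HiSeq4000 per the labels. Each deposited table holds raw read counts by gene symbol, whole numbers that the authors left unscaled, judging by their unequal totals. FastQC 0.11.2, STAR 2.4.0g1, featureCounts, Cufflinks, edgeR and the mm10 build stand in the submitters' processing notes. The strand setting and the handling of reads with several sites are not given there.

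KO was compared with WT in R 4.3.3 by edgeR 4.0.16 (quasi-likelihood test, TMM scaling, filterByExpr, robust dispersion, Benjamini-Hochberg over 14493 genes, threshold 0.05). SE is the log2 fold change over the root of F. Alternatives used DESeq2 1.42.0, limma 3.58.1 voom, other scalings and filters, a replicate block and fewer libraries. Each mouse is 1 replicate, so p-values set the difference between the groups against the spread between mice. That spread was estimated for each gene with information from all genes tested. The labels name no batch. The common biological coefficient of variation was 0.301. No pair of libraries agreed within sampling noise.

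TPM used exon lengths of the deposited annotation, promoters came from RefSeq (GRCm38.p6), and Plin4 units from GENCODE M21 transcripts. Named genes were all 10 genes, the up to 4 genes with the smallest p in each list, the 2 closest genes in pattern to each (the first is printed) and up to 2 markers a list. The beige list exceeds that limit of 2: Ucp1, Cox8b and Cox7a1 are named, the markers of that list without overlap between the groups. Ptrf, Ehd2 and the share of Plin5 were singled out after their values were seen. The 10 genes and the lists were chosen with earlier results of these data known. The test was checked on simulated counts with set changes larger than those of the 10 genes, so changes of their size were not covered. The targeted gene is not reported here.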

Additional observations from a re-analysis of the deposited data

Results flagged for a closer look

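In 60 groups of 4 libraries (gene levels and marker sums), 5 had 1 library set apart from its own group by Dixon's test, where chance gives about 3. Fitm2 was at 161 CPM in KO 3 and at 85.1 to 96.9 CPM in the other KO libraries. G0s2 was at 519 CPM in WT 2 and at 248 to 294 CPM in the other WT libraries. Ehd3 was at 116 CPM in WT 2 and at 77.8 to 81.0 CPM in the other WT libraries. Pacsin1 was at 0.37 CPM in WT 3 and at 0.0838 to 0.103 CPM in the other WT libraries. The summed epithelial and ciliated markers were at 157 CPM in KO 2 and at 5.87 to 31.1 CPM in the other KO libraries.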

How the results depend on the processing

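None of the 10 genes was called in any of the 17 alternatives. Over all genes, 2 were called by edgeR as run here, 17 by DESeq2, and 0 with total counts, without the low-count filter, with the replicate block, with limma voom, without KO 2 and WT 3, and in every fit that left out 1 library (0 to 0). Plin5, Cav1 and Cav2 kept their direction throughout. With 1 library left out, the log2 fold change was 0.48 to 0.86 for Plin5, -0.30 to -0.25 for Cav1 and -0.42 to -0.24 for Cav2, -0.24 to 0.01 for Plin1, -0.08 to 0.36 for Plin2, -0.04 to 0.08 for Plin3, -0.28 to 0.18 for Plin4, -0.16 to 0.16 for Cidec, -0.21 to 0.19 for Bscl2 and -0.28 to 0.09 for Fitm2. The other reversals were Plin4 at -0.05 with the replicate block and -0.05 with voom, Cidec at -0.0041 with the block and -0.0018 with voom, Bscl2 at -0.23 without KO 2 and WT 3, and Fitm2 at 0.01 with total counts and 0.02 without KO 2 and WT 3. The cause was not tested. Correlations between KO and WT libraries of the same number were 0.117, -0.0152, -0.32 and -0.0173. They lay within those of different numbers, from -0.341 to 0.395. Pairing by number was thus not seen, but so few values cannot show that the mice were unpaired. The median of all genes moved between -0.0054 and 0.0435 over the settings. With 4 mice a group, the 95% intervals of the folds of the 10 genes lay between 0.64 (Plin4) and 2.32 (Plin5).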
